A study of Mus musculus with 9 samples.

Results

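The genes described here encode Wnt ligands, their Frizzled (Fzd) receptors and co-receptors, the secreted Wnt antagonists, and the Axin, Apc and TCF/LEF proteins inside the cell. The rule that chose the members used gene symbols and no measured value, although it was drawn up with earlier results of these data known. They were all genes named *Wnt*, *Fzd*, *Sfrp* or *Dkk* with a number, together with *Lrp5*, *Lrp6*, *Ror1*, *Ror2*, *Wif1*, *Axin1*, *Axin2*, *Apc*, *Tcf7l2*, *Tcf7* and *Lef1*. This gave 48 of the 18193 genes that a probe set measured alone. *Tcf7* was not analysed here.

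Pancreatic islets came from male mice aged 8 weeks, whose strain the labels give as C57BL/6. βRapKO mice (KO) carried 2 floxed *Raptor* alleles, from a C57BL/6J line, and a Cre transgene driven by the rat insulin promoter. The Cre parents were not pure C57BL/6J but of a mixed background with a second inbred strain. WT mice were littermates with the same floxed alleles and no Cre, so the transgene and the deletion cannot be told apart. Islet RNA from 5 animals was pooled for each of 4 KO and 5 WT Affymetrix Mouse Genome 430 2.0 arrays. Whole islets were measured, so the values are sums over beta cells and all other cells of the preparation, and fewer cells of a type cannot be told apart from less RNA per cell.

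Wnt proteins are lipid-modified signals that act on neighbouring cells. In the canonical pathway a Wnt bound to a Frizzled and to Lrp5 or Lrp6 stops the destruction complex of Axin and Apc from degrading beta-catenin, which then enters the nucleus and works with TCF/LEF factors on target genes. Other branches signal through Ror receptors, cell polarity proteins or calcium, and secreted antagonists such as the Sfrp and Dkk proteins limit all or part of the signal. In islets the pathway has been studied for its part in beta cell growth and maturation, and *TCF7L2* is known in humans as a diabetes risk gene.

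Promoter sequence was available from RefSeq (GRCm38.p6) for 31 of the 48 members, as 38 windows of 300 bases around a transcription start. Fzd1, the receptor whose transcript differed between the groups, and Axin2, a canonical target gene that did not pass the test, are shown for the 250 bases before their starts, 5′ to 3′ on the gene's strand, with every CG pair in capitals.
Fzd1, chr5:4758217-4758466, minus strand: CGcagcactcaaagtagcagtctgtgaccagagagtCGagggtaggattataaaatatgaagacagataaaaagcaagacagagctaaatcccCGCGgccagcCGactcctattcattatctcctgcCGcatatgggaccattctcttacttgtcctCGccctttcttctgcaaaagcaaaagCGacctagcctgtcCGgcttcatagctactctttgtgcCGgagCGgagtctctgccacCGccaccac
Axin2, chr11:108920099-108920348, plus strand: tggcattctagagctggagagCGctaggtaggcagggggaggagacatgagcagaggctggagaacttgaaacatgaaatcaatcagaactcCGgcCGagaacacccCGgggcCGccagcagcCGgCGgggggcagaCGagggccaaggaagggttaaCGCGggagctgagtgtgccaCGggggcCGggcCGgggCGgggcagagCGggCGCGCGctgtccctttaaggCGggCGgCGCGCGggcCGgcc

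The *Fzd1* stretch held 12 CG pairs at 51.2% GC, and the *Axin2* stretch held 24 at 69.2% GC. The median over the member windows was 20.5 CG pairs in these 250 bases, and 6 over all RefSeq windows. *Sfrp1*, the other gene that differed, had no window.

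The motif bound by TCF/LEF factors was searched as CTTTGAA and CTTTGAT on both strands. It stood in 3 of the 38 member windows (7.89%), those of *Dkk1*, *Wnt11* and *Wnt5b*, and in 2842 of all 32851 windows (8.65%). These 3 are shown as 31-base stretches because they are the members whose windows held it, with the motif in capitals (ATCAAAG is CTTTGAT read on the other strand). Neither the *Fzd1* nor the *Axin2* window held these letters. A match is a description of the letters and not a binding site.
Dkk1, chr19:30549595-30549625, minus strand: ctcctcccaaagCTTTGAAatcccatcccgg
Wnt11, chr7:98835049-98835079, plus strand: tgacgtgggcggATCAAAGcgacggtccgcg
Wnt5b, chr6:119449439-119449469, minus strand: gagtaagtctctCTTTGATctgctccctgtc

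All values are log2 signals of 1 probe set per gene, the brightest one, and differences are KO minus WT. Levels of different genes are not compared, since probe sets differ in how brightly they bind, and the brightest gene of each role is given array by array only as the one measured with the most signal. The lowest 0.25 of genes by mean signal (under 5.51) was left out of the test, which left 13644 genes and 30 of the 48 members. These were 7 of 19 Wnt ligands, 8 of 10 Fzd receptors, all 4 co-receptors, 5 of 9 secreted antagonists, all 3 destruction complex genes, both TCF/LEF genes, and *Fzd10os*, a transcript from the strand opposite *Fzd10*. The array medians lay between 6.85 and 7.05 in KO and between 6.87 and 7.02 in WT islets. *Rptor*, the gene that encodes Raptor, had signals of 8.59, 8.48, 9.21 and 8.73 in KO islets, against 9.53, 9.59, 9.71, 9.22 and 9.30 in WT islets. It was lower in KO islets by the same test used for the members (difference -0.72 ± 0.17 SE, limma adjusted p = 0.0410), and the highest KO array reached just under the lowest WT array. Without any 1 array other than KO3 or WT4 it was not called (adjusted p up to 0.115 without KO1).

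Of the 30 members tested, *Fzd1* and *Sfrp1* were higher in KO islets and none was lower (limma, adjusted p under 0.05 over all 13644 genes). That is 6.67% of the members called higher, where 3.67% of all genes were called higher and 2.63% were called lower. At an unadjusted p under 0.05 the members were *Fzd1*, *Sfrp1* and *Fzd3*, 10% of those tested, while 21.8% of all genes passed. KO arrays lay wholly above WT arrays in 2 tested members (6.67%) and in 7.43% of all genes, and wholly below in 0 members and in 5.05% of all genes. Of the members, 13 differences were positive and 17 negative. Their median difference was -0.05, against 0.04 over all genes tested. The share called higher rests on 2 genes, and nothing particular to the members is read from these counts. With each array centred on its median, 214 of all genes were higher and 260 lower, against 501 and 359 as deposited, and no member was called.

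**Figure D1:**
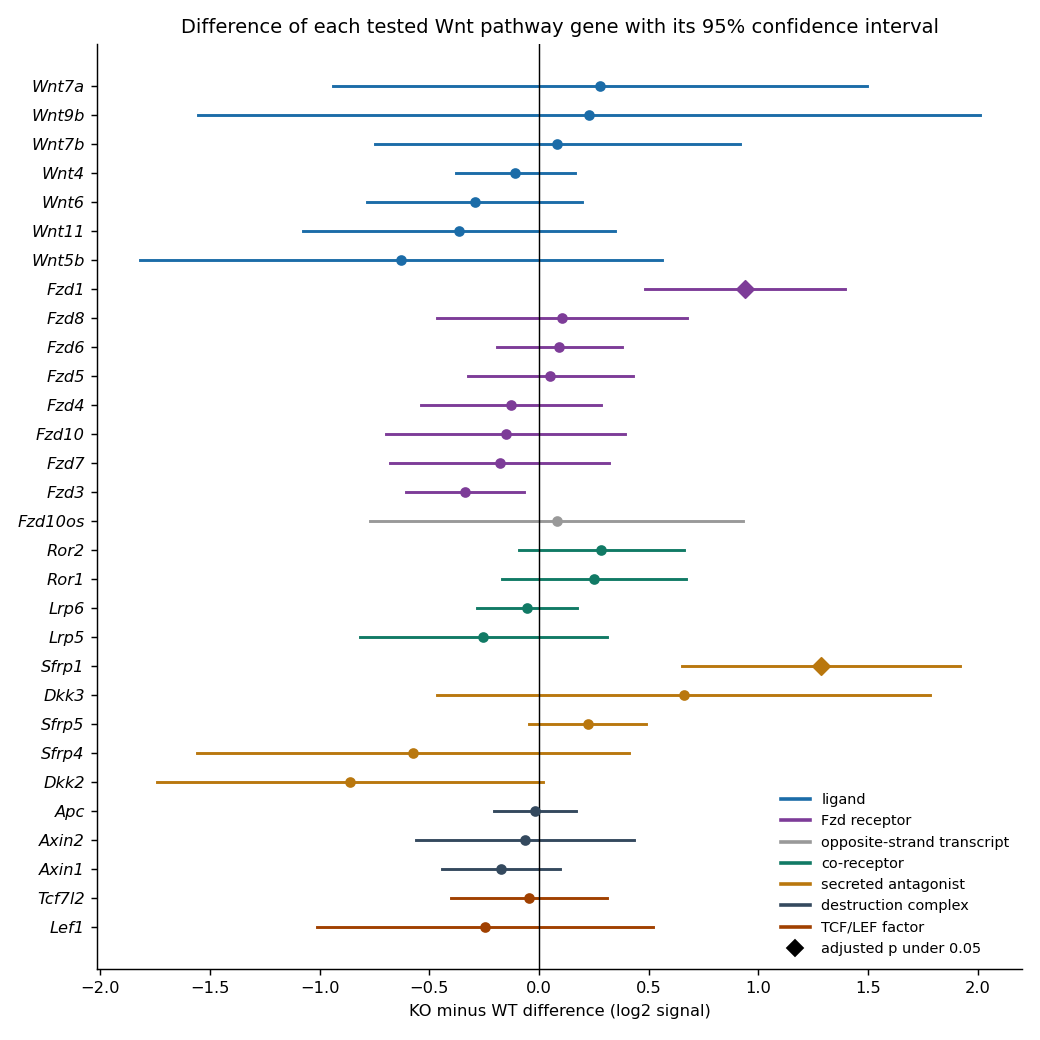
Difference between KO and WT islets in log2 signal (horizontal axis) for the 30 tested Wnt pathway genes, ordered by role. Points are KO minus WT differences, lines are 95% confidence intervals from limma, and diamonds mark *Fzd1* (0.94) and *Sfrp1* (1.28), the 2 genes with an adjusted p under 0.05.

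*Fzd1*, a Frizzled receptor, was higher in every KO array than in any WT array. Its probe set read 8.79, 8.41, 8.54 and 8.69 in KO islets, against 7.43, 7.42, 7.29, 8.10 and 8.10 in WT islets. The KO arrays lay close together, and the WT arrays split into 3 lower and 2 higher ones. The means were 8.61 ± 0.17 in KO (SD, n = 4) and 7.67 ± 0.40 in WT islets (SD, n = 5). The difference was 0.94 ± 0.20 (SE), or 1.92-fold, with a 95% confidence interval of 0.48 to 1.39 (limma adjusted p = 0.0302). A second *Fzd1* probe set was dim and read 5.04 ± 0.23 in KO and 3.74 ± 2.13 in WT islets. Its groups overlapped, with WT1 and WT2 far below all other arrays.

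*Sfrp1*, which encodes a secreted protein that binds Wnts through a Frizzled-like domain, was also higher. Its probe set read 8.38, 8.18, 7.65 and 7.89 in KO islets, against 6.22, 6.09, 7.26, 7.06 and 7.08 in WT islets. Every KO array was above every WT array, with KO3 and WT3 nearest to each other and WT1 and WT2 lowest. The means were 8.02 ± 0.32 in KO (SD, n = 4) and 6.74 ± 0.54 in WT islets (SD, n = 5). The difference was 1.28 ± 0.28 (SE), or 2.44-fold, with a 95% confidence interval of 0.65 to 1.92 (limma adjusted p = 0.0320). The other 4 *Sfrp1* probe sets, all dimmer, differed by 1.14, 0.36, 1.93 and 0.08. All 5 were positive, and KO lay above WT without overlap in the one at 1.93 as well.

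Both calls were near the threshold. *Fzd1* was called in 5 of 18 alternative settings (adjusted p between 0.0118 and 0.343) and *Sfrp1* in 6 of 18 (0.0133 to 0.216), while both differences stayed positive in all 18. Leaving out any 1 of the 4 KO arrays, WT1 or WT2 ended both calls, with *Fzd1* at adjusted p = 0.0914 and *Sfrp1* at adjusted p = 0.0961 without KO1, the largest of these p-values, and leaving out WT3 ended that of *Fzd1* (adjusted p = 0.0518).

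**Figure D2:**
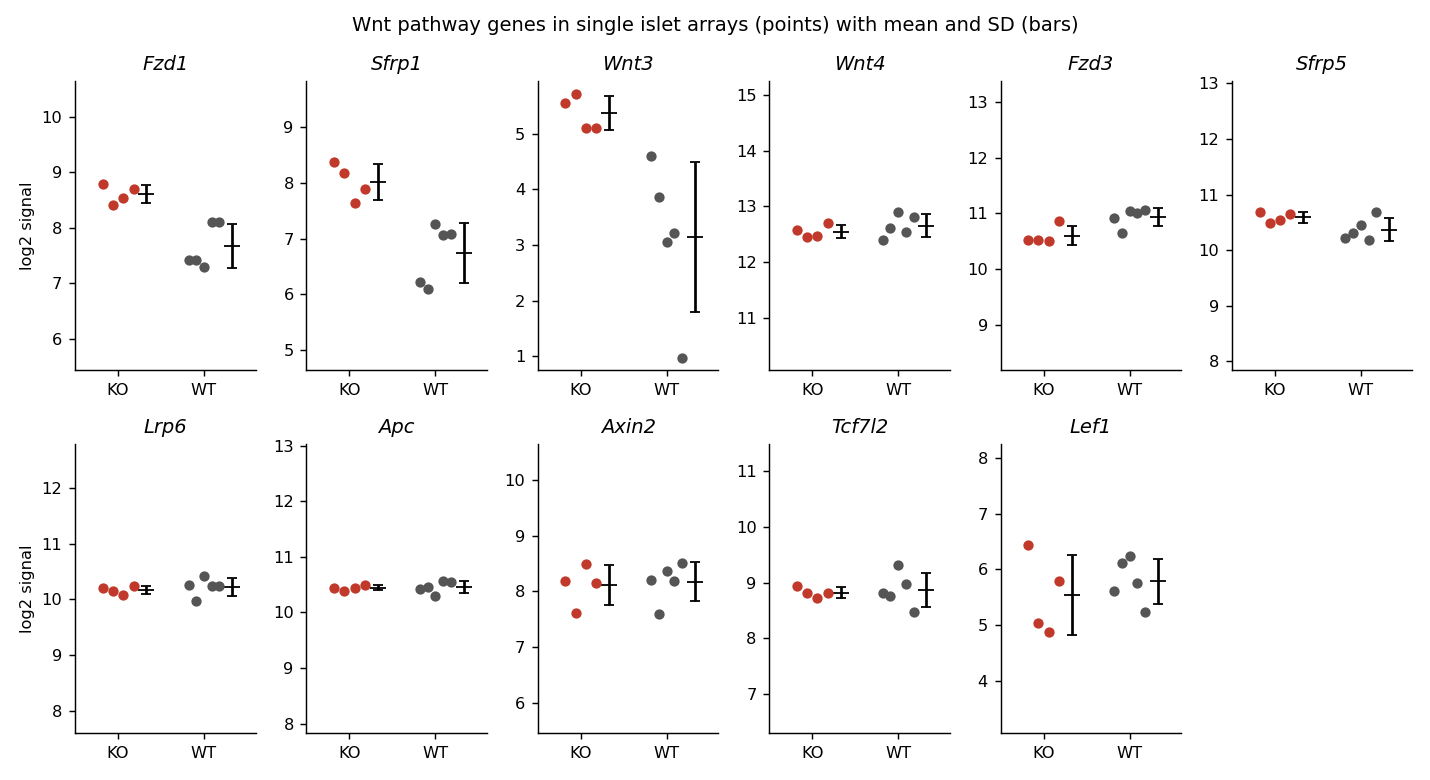
Log2 signal (vertical axis, the same span in every panel) of 11 Wnt pathway genes in each KO (red, left) and WT (grey, right) array, with bars for the mean and SD. *Fzd1*, *Sfrp1* and *Wnt3* show no overlap between the groups, and the other 8 genes overlap.

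Islet preparations also hold stromal cells, and the mean signal of their markers was higher in KO than in WT arrays. All 18 stromal markers on the list were tested, 10 were called higher in KO islets and none lower, and 11 had KO arrays wholly above WT arrays (median difference 1.20). The count was 5 with each array centred on its median, 5 with no filter and 4 with probe sets averaged, and leaving out 1 array gave 2 to 9 called, the fewest without KO1. Their mean signal lay between 9.41 and 9.88 in KO arrays and between 8.01 and 9.06 in WT arrays. None of the markers was at 0 in either group. The stromal mean was lowest in WT2 (8.01) and WT1 (8.20), and *Sfrp1* was lowest in these arrays too. *Fzd1* read 7.43, 7.42 and 7.29 in WT1, WT2 and WT3, and the stromal mean of WT3 was 8.87. The stromal list was not the only one whose mean separated the groups.

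The mean signal of 4 other marker lists also lay wholly above WT arrays in KO arrays. That of 5 Schwann and glial markers was 6.94 to 7.15 in KO and 5.66 to 6.40 in WT arrays, with 1 of the 5 called higher. Of the 5, only *Sox10* had no positive difference (-0.05). *Gfap*, on the same list but too dim to be tested, was lower in KO islets with overlapping groups (4.23 ± 1.46 in KO, 6.04 ± 0.64 in WT, SD). The mean of 3 ductal markers was 8.09 to 8.69 in KO and 6.73 to 7.92 in WT arrays, with none called. Of these, *Krt19* (4.81 in WT, 6.78 in KO) and *Sox9* (5.33 in WT, 5.99 in KO) passed the limit of 5.51 only through their KO arrays. The bright one, *Krt7*, differed by 0.11. In the Schwann and glial list *Foxd3* was such a case too (5.38 in WT, 6.95 in KO). For 12 endothelial markers the mean was 9.43 to 9.79 in KO and 9.25 to 9.40 in WT arrays, with none called. The mean of 3 delta cell markers was 12.77 to 13.17 in KO and 12.38 to 12.70 in WT arrays, with 1 called higher. That was *Hhex* (0.84, limma adjusted p = 0.0155). *Rbp4* had KO arrays above WT arrays without a call (0.56), while *Sst* overlapped between the groups (-0.04). Means of alpha cell, macrophage and acinar markers overlapped between the groups. That of 8 acinar markers differed widely between arrays of the same genotype, over 8.66 to 13.09 in KO and 9.26 to 13.00 in WT arrays. Of the 8 macrophage markers 1 was called higher, *C1qa* (0.45, limma adjusted p = 0.0491), and no alpha cell or acinar marker was called. The alpha cell marker *Irx2* had KO arrays above WT arrays (0.69, limma adjusted p = 0.0515), while *Gcg* (-0.10) and *Ttr* (-0.13) overlapped. Beta cell markers were lower, with a mean of 6 at 12.90 to 13.13 in KO and 13.55 to 13.80 in WT arrays (difference -0.66) and 4 of the 6 called lower, namely *Pdx1*, *Nkx6-1*, *Slc2a2* and *Ucn3*. None of the tested markers of any of these lists was at 0. The part of any of these cell types in the differences of *Fzd1* and *Sfrp1* was not tested.

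**Figure D3:**
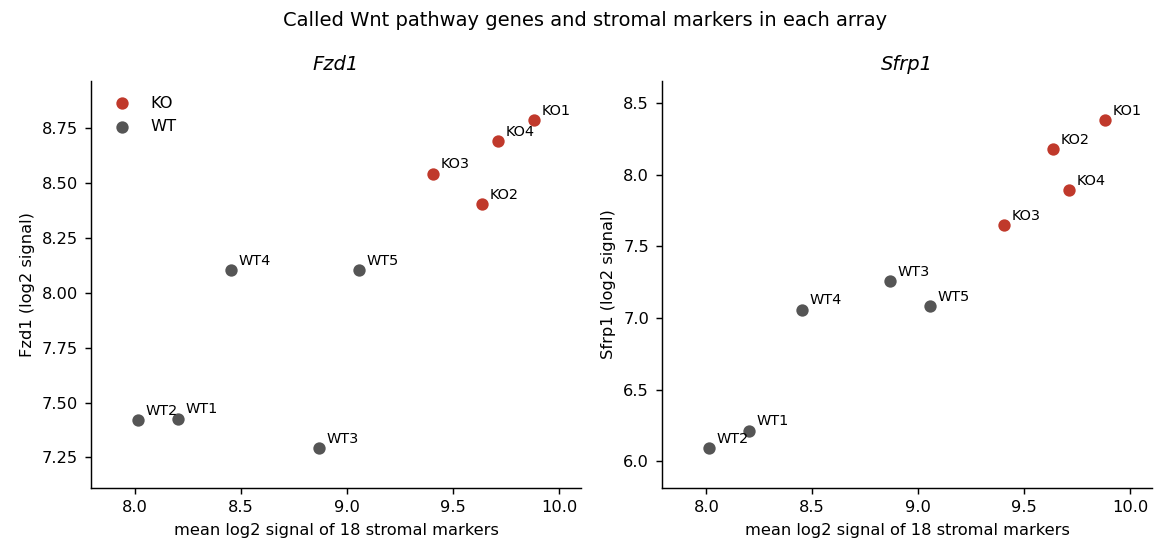
Log2 signal of *Fzd1* (left panel) and *Sfrp1* (right panel) against the mean log2 signal of 18 stromal markers, 1 point per array (KO red, WT grey). KO arrays lie above WT arrays on both axes, with stromal means of 9.41 to 9.88 in KO and 8.01 to 9.06 in WT islets.

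Among the ligands, *Wnt4*, a ligand known from kidney and gonad development, was the brightest tested. It read 12.58, 12.45, 12.47 and 12.70 in KO islets, against 12.40, 12.62, 12.91, 12.54 and 12.82 in WT islets. The groups overlapped throughout. The difference was -0.11 with a 95% confidence interval of -0.38 to 0.16 (limma adjusted p = 0.668), and the second *Wnt4* probe set differed by 0.01.

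The other 6 tested ligands had overlapping groups and intervals that crossed 0. *Wnt6* ranged over 6.36 to 7.27 in KO and 6.79 to 7.64 in WT islets (difference -0.29), and *Wnt11*, known for planar polarity signalling, over 6.76 to 8.30 in KO and 7.42 to 8.27 in WT islets (-0.37). *Wnt5b*, a mostly non-canonical ligand, ranged over 4.09 to 6.86 in KO and 6.23 to 7.25 in WT islets (-0.63), with KO3 as the lowest array. The *Wnt5b* probe set was of a class whose probes can also bind other transcripts, and a second, dim one differed by -0.59. *Wnt7a* lay at 6.29 to 7.66 in KO and 5.00 to 7.87 in WT islets (0.28), and *Wnt7b*, a canonical ligand, at 6.91 to 8.01 in KO and 6.38 to 8.02 in WT islets (0.08). The widest interval of the ligands, -1.56 to 2.01, was that of *Wnt9b*, at 4.15 to 6.82 in KO and 3.66 to 7.17 in WT islets (0.23). Its arrays scattered so widely that neither direction could be given.

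The 12 remaining ligands were too dim to be tested. Of these, *Wnt3*, a canonical ligand, had groups that did not overlap. It read 5.55, 5.72, 5.11 and 5.11 in KO islets, against 4.60, 3.86, 3.06, 3.21 and 0.97 in WT islets. Every KO array was above every WT array, and WT5 was far below the rest. The difference was 2.23, and in a fit without the filter it was not called (limma adjusted p = 0.123). *Wnt3* had 1 probe set, of a class whose probes can also bind other transcripts, and its neighbour in the genome, *Wnt9b*, overlapped between the groups as given above.

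*Wnt1*, *Wnt2*, *Wnt2b*, *Wnt3a*, *Wnt5a*, *Wnt8a*, *Wnt8b*, *Wnt9a*, *Wnt10a*, *Wnt10b* and *Wnt16* were also below the limit and overlapped between the groups. *Wnt9a* had the largest positive difference of these, 1.22, at 5.51 to 6.61 in KO and 3.70 to 6.25 in WT islets. *Wnt8b* had the largest negative one, -1.51, at 1.87 to 6.12 in KO and 4.67 to 5.54 in WT islets. Such sizes were within the scatter of dim signals. *Wnt3a*, a canonical ligand, ranged over 1.48 to 6.68 in KO and 3.78 to 6.55 in WT islets, and *Wnt5a*, the best known non-canonical one, over 4.56 to 6.00 in KO and 4.23 to 6.36 in WT islets. *Wnt1* (1.62 to 4.83 in KO, 1.27 to 5.42 in WT), *Wnt2* (2.58 to 5.33 in KO, 0.75 to 5.41 in WT), *Wnt2b* (1.40 to 5.90 in KO, 2.49 to 6.11 in WT) and *Wnt8a* (2.38 to 6.33 in KO, 3.26 to 6.03 in WT) spread over several log2 units in both groups. So did *Wnt10a* (2.83 to 6.16 in KO, 2.97 to 5.15 in WT), *Wnt10b* (3.29 to 5.28 in KO, 2.24 to 5.56 in WT) and *Wnt16* (1.99 to 5.82 in KO, 1.33 to 5.65 in WT). The median within-group SD was 1.39 over the 18 members left out by the filter and 0.356 over the 30 tested. Over all genes passing the filter it was 0.235.

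Among the Frizzled receptors, *Fzd3* was the brightest and the only one other than *Fzd1* with an unadjusted p under 0.05. It read 10.53, 10.52, 10.50 and 10.86 in KO islets, against 10.93, 10.66, 11.04, 11.01 and 11.06 in WT islets. KO1, KO2 and KO3 lay below all WT arrays, and KO4 lay above WT2 only. The difference was -0.34 ± 0.12 (SE), with a 95% confidence interval of -0.60 to -0.07 (limma adjusted p = 0.135), so it did not pass the test. All 6 *Fzd3* probe sets had negative differences, of -0.34, -0.37, -0.40, -0.34, -1.08 and -0.65. They measure the same RNA and are not replicates of each other.

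The other 6 tested receptors, *Fzd4*, *Fzd5*, *Fzd6*, *Fzd7*, *Fzd8* and *Fzd10*, overlapped between the groups, with differences from -0.18 to 0.11. *Fzd4*, also the receptor for norrin in vessels, lay at 7.94 to 8.50 in KO and 7.89 to 8.74 in WT islets (-0.13). *Fzd6*, a polarity receptor, lay at 9.57 to 9.74 in KO and 9.30 to 9.89 in WT islets (0.09), with an interval of -0.19 to 0.38. Differences as large as that of *Fzd1* lay outside this interval. *Fzd5* ranged over 7.56 to 8.26 in KO and 7.63 to 8.15 in WT islets (0.05), *Fzd7* over 8.00 to 8.80 in KO and 8.05 to 8.83 in WT islets (-0.18), and *Fzd8* over 7.74 to 8.27 in KO and 7.06 to 8.30 in WT islets (0.11). *Fzd10* lay at 6.30 to 7.08 in KO and 6.41 to 7.20 in WT islets (-0.15). *Fzd10os*, which lies next to *Fzd10*, lay at 5.04 to 6.73 in KO and 5.18 to 6.34 in WT islets (0.08). *Fzd2* (3.22 to 5.99 in KO, 1.98 to 6.35 in WT) and *Fzd9* (3.65 to 5.39 in KO, 3.30 to 5.96 in WT) were too dim to be tested. The receptors taken without *Fzd1* thus showed no common direction, 3 positive and 4 negative.

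**Figure D4:**
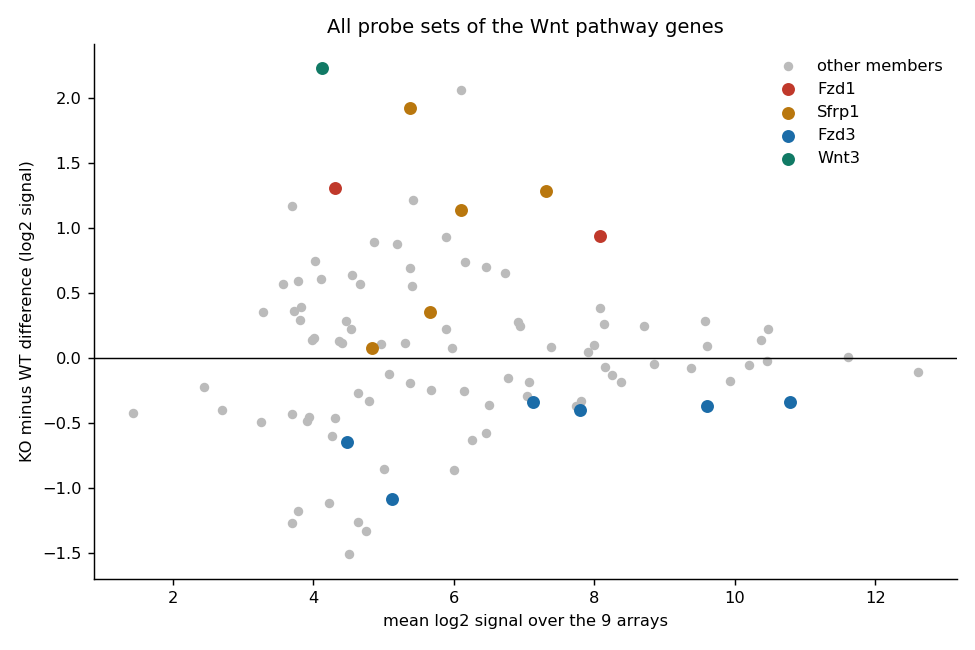
KO minus WT difference in log2 signal (vertical axis) against the mean log2 signal over the 9 arrays (horizontal axis) for all 98 probe sets of the 48 members. Large differences of either sign gather at low signal, the 5 *Sfrp1* (ochre) and 2 *Fzd1* (red) probe sets lie above 0, and the 6 *Fzd3* probe sets (blue) lie below 0.

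Of the co-receptors, *Lrp6*, which pairs with Frizzled in the canonical pathway, was the brightest. It read 10.20, 10.15, 10.08 and 10.25 in KO islets, against 10.25, 9.97, 10.43, 10.24 and 10.24 in WT islets. The KO arrays lay inside the range of the WT arrays. The difference was -0.05 with a 95% confidence interval of -0.28 to 0.18 (limma adjusted p = 0.817). A second, dimmer *Lrp6* probe set differed by 0.70 with overlapping groups. *Lrp5*, a close relative of *Lrp6*, ranged over 5.24 to 6.66 in KO and 5.98 to 6.46 in WT islets (-0.25). The non-canonical receptors overlapped too, with *Ror1* at 8.56 to 9.13 in KO and 8.20 to 9.01 in WT islets (0.25) and *Ror2* at 9.42 to 10.03 in KO and 9.16 to 9.67 in WT islets (0.28). A second *Ror2* probe set differed by -0.07. No co-receptor passed the test.

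Among the secreted antagonists, *Sfrp5*, a relative of *Sfrp1*, was the brightest tested and did not pass the test. It read 10.69, 10.48, 10.54 and 10.65 in KO islets, against 10.21, 10.31, 10.45, 10.19 and 10.68 in WT islets. WT5 lay inside the KO range, and the other WT arrays lay below it. The difference was 0.22 with a 95% confidence interval of -0.04 to 0.49 (limma adjusted p = 0.313). *Sfrp4*, another Wnt-binding antagonist, lay at 5.38 to 6.96 in KO and 5.96 to 7.77 in WT islets (-0.58). The family thus had members on both sides of 0, with *Sfrp1* alone passing the test, and *Sfrp2* (4.95 to 6.27 in KO, 3.11 to 5.74 in WT) was too dim to be tested.

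The Dkk proteins block canonical signalling at Lrp5 and Lrp6, apart from Dkk3, whose action differs. *Dkk2* ranged over 4.67 to 6.54 in KO and 6.24 to 6.74 in WT islets, and its difference of -0.86 was the most negative of the tested members (limma adjusted p = 0.239). KO3 and KO4 were low, while KO1 was just under the WT range and KO2 within it. *Dkk3* lay at 6.21 to 7.79 in KO and 5.02 to 7.63 in WT islets, with a difference of 0.66 that did not pass the test (limma adjusted p = 0.497). Its dimmer probe set differed by 2.06 with KO arrays above WT arrays, which did not pass when each probe set was tested on its own (limma adjusted p = 0.264). *Dkk1* (0.43 to 6.56 in KO, 0.74 to 6.05 in WT), *Dkk4* (3.32 to 5.57 in KO, 3.001 to 5.57 in WT) and *Wif1*, which binds Wnts outside the cell (1.64 to 5.95 in KO, 3.96 to 5.57 in WT), were too dim to be tested.

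Inside the cell, none of the destruction complex genes passed the test. *Apc*, a tumour suppressor and scaffold of the complex, was the brightest of the 3. It read 10.44, 10.39, 10.45 and 10.50 in KO islets, against 10.42, 10.46, 10.30, 10.56 and 10.55 in WT islets. The spread was small in both groups, and the KO arrays lay within the WT range. The difference was -0.02 with a 95% confidence interval of -0.20 to 0.17 (limma adjusted p = 0.938). *Axin1*, the other scaffold, ranged over 9.66 to 10.05 in KO and 9.83 to 10.19 in WT islets (-0.17).

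*Axin2*, itself induced by canonical signalling and often used as its readout, read 8.18, 7.62, 8.49 and 8.15 in KO islets, against 8.21, 7.59, 8.36, 8.19 and 8.52 in WT islets. The lowest and the highest arrays of both groups lay at nearly the same signals. The difference was -0.07 with a 95% confidence interval of -0.56 to 0.43 (limma adjusted p = 0.904). A second, dim *Axin2* probe set differed by 0.89 with overlapping groups.

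*Tcf7l2*, a TCF/LEF factor, read 8.94, 8.82, 8.71 and 8.81 in KO islets, against 8.80, 8.76, 9.32, 8.97 and 8.48 in WT islets. The KO arrays lay together in the middle of the wider WT range. The difference was -0.05 with a 95% confidence interval of -0.40 to 0.31 (limma adjusted p = 0.907), and the 3 dimmer probe sets differed by -0.33, 0.74 and 0.57. *Lef1*, the other TCF/LEF member measured, read 6.44, 5.05, 4.88 and 5.80 in KO islets, against 5.61, 6.11, 6.24, 5.75 and 5.23 in WT islets. The KO arrays spread more widely than the WT arrays and overlapped with them on both sides. The *Lef1* difference was -0.25 with an interval of -1.01 to 0.52 (limma adjusted p = 0.738). A second, dim *Lef1* probe set differed by 0.59 with overlapping groups.

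Other genes of the pathway were taken from lists of 96 genes, of which 94 were measured and 76 tested. In all, 3 were called higher in KO islets and 1 lower, with a median difference of 0.02, the count standing beside the same 3.67% higher and 2.63% lower over all genes. *Sostdc1*, a secreted antagonist that acts at Lrp5 and Lrp6, read 7.56, 7.13, 7.29 and 7.84 in KO islets, against 6.17, 5.87, 6.67, 6.51 and 7.05 in WT islets. All KO arrays were above all WT arrays, with WT5 the nearest, and the difference was 1.00 ± 0.25 (SE, limma adjusted p = 0.0462). Over 18 alternative settings it ranged from 0.33 to 1.15 and was called in 4. *Sostdc1* and *Sfrp1* were the antagonists called higher, and both were lowest in WT2 and next lowest in WT1.

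Of the Groucho family corepressors, which hold TCF/LEF targets silent, *Tle1* and *Tle3* passed the test in opposite directions. *Tle1* was higher in KO islets (10.85 ± 0.22 in KO, 10.32 ± 0.06 in WT, difference 0.53, limma adjusted p = 0.0275), and *Tle3* was lower (9.67 ± 0.07 in KO, 10.16 ± 0.20 in WT, difference -0.50, limma adjusted p = 0.0375). In neither gene did the groups overlap, and *Tle2* (difference -0.07) and *Tle4* (0.66) did not pass. The other call was *Camk2d*, a calcium and calmodulin dependent kinase (8.71 ± 0.12 in KO, 8.11 ± 0.24 in WT, difference 0.60, limma adjusted p = 0.0341). *Tcf7l1*, a TCF/LEF factor that the symbol rule did not take, read 9.34, 8.89, 9.09 and 9.26 in KO islets, against 8.34, 6.67, 6.71, 8.11 and 8.62 in WT islets. It was named after its values were seen, as its groups did not overlap and it differed by 1.46 without passing the test (limma adjusted p = 0.0808). The target gene *Tbx3*, given below, was named in the same way. *Tcf7l1* was called in 4 of 19 alternative settings. The calls of *Sostdc1*, *Tle1*, *Tle3* and *Camk2d* were as close to the threshold as those of the members. Without any 1 of the 9 arrays other than WT5, *Sostdc1* was not called (adjusted p up to 0.122), the same held for *Tle3* (up to 0.0974), and the count called in these lists lay between 0 and 5 higher and 0 and 1 lower. With each array centred on its median, with no filter, with probe sets averaged or with the replicate block, 0 of these genes were called in either direction.

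The lists with no call were those of ligand release (3 of 3 tested), the R-spondin axis (6 of 9), cytoplasmic components (17 of 21) and canonical target genes (13 of 23). Lowest in p were *Wls*, the carrier of Wnts to the cell surface (-0.20, limma adjusted p = 0.264), *Rspo2*, a secreted enhancer of Wnt signalling (1.28, 0.145), *Gsk3a*, a kinase of the destruction complex (-0.39, 0.0773), and *Apcdd1*, a target gene that encodes a membrane inhibitor (0.78, 0.0642). KO arrays lay above WT arrays for *Rspo2* and *Apcdd1*. Over 18 alternative settings the difference ranged from 0.14 to 1.47 for *Rspo2* and from 0.012 to 0.89 for *Apcdd1*, so both nearly vanished in some setting. *Rspo2* was called in 1 of these settings and *Apcdd1* in 3, and *Gsk3a* was called in 3 of 19. The median difference of the 13 target genes tested was 0.07, near the 0.04 over all genes, and 0 of them were called. KO arrays lay wholly above WT arrays in 2, *Apcdd1* and *Tbx3* (0.60, limma adjusted p = 0.0739). They lay wholly below in 1, *Ccnd2* (-0.26, limma adjusted p = 0.105). Over all genes tested the shares were 7.43% above and 5.05% below, and nothing particular to the target genes is read from these counts.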

How the data were processed

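Total islet RNA was amplified and labelled as biotinylated cRNA and hybridised to Affymetrix Mouse Genome 430 2.0 arrays, 4 KO and 5 WT. The authors deposited 1 log2 signal per probe set and array. The methods name Genespring, and how probes were summarised and scaled is not given in the sources used here. On every array the 2% trimmed mean of the linear signal was 497.1 to 497.7, and signals under 1 had been set to 1 (43 to 107 values per array). No scan dates were used, so no batches were examined.

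Of 45037 probe sets, 34945 were paired with 1 gene by the platform annotation, 932 with several and 9160 with none here. Each of 18193 genes was represented by its brightest single-gene probe set, and the lowest 0.25 by mean signal was left out. The test was limma 3.58.1 under R 4.3.3 (lmFit and eBayes, with genotype as the sole factor). Its two-sided p-values were adjusted by Benjamini and Hochberg's method over 13644 genes, and 0.05 was the threshold. Replicates were separate pools, and the number of arrays limits the precision. Members and lists were chosen with earlier results of these data known.

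Every member was named. Values per array are given for members that were called, that had no overlap and a difference over 0.58, or that were the brightest tested of their role, and for *Axin2*, *Lef1* and *Tcf7l2*. Of other pathway genes, those called are named, or the lowest p of a list without a call. *Tcf7l1*, *Tbx3* and *Ccnd2* were named after their values were seen, since their groups did not overlap. Alternatives covered the probe set rule, filter, normalization, floor, variance model, test, replicate block and leaving out each array. On simulated data of 13644 genes in the same design, limma found 15 of 50 genes changed by 0.58, 34 of 50 changed by 1.00, 42 of 50 changed by 1.30 and 47 of 50 changed by 2.00 (log2), and 9 of 147 calls were false. The simulated noise was independent between genes, and fewer genes were called than in the islets, so these rates may not carry over.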

Additional observations from a re-analysis of the deposited data

Results flagged for a closer look

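In 7 of the 96 groups examined (48 members in KO and in WT islets), 1 array lay far from the others of its group, and chance alone gives about 1 in 20. *Fzd3* read 10.9 in KO4, while the other KO arrays lay at 10.50 to 10.53, and *Wnt9b* read 4.15 in KO1, while the others lay at 6.52 to 6.82. *Wnt1*, too dim to be tested, read 1.62 in KO4 and 4.49 to 4.83 in the other KO arrays. Among WT arrays, *Fzd8* read 7.06 in WT2 and 8.08 to 8.30 elsewhere, and *Wnt5b* read 7.25 in WT5 and 6.23 to 6.48 elsewhere. The dim *Fzd2* read 1.98 in WT1 and 5.63 to 6.35 in the other WT arrays, and the dim *Sfrp2* read 3.11 in WT2 and 5.27 to 5.74 in the others. None of these 7 members was called.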

How the results depend on the processing

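The count of members called lower in KO islets was 0 in every setting tried. The count called higher was 2 as reported, and stayed at 2 (*Fzd1* and *Sfrp1*) with signals under 5 raised to 5, with an intensity trend in the prior variance and with the study's rule of fold over 1.5 and unadjusted p of the methods' t-test, under which 761 of all genes (5.58%) were higher and 333 (2.44%) lower. It was 0 with probe sets averaged, with no filter, with each array centred on its median, with quantile normalization, with the methods' t-test after adjustment, with the replicate block, and with each probe set tested on its own, an alternative chosen after seeing the data. It was also 0 with the lowest 0.5 of genes left out, a filter that neither gene passed. Leaving out 1 array gave 0 to 2. Over all genes, 501 were higher and 359 lower as reported, against 183 and 134 with probe sets averaged, 239 and 213 with no filter, 214 and 260 with median centring and 33 and 28 with the replicate block, in which WT5 has no KO array of its number and carries no weight. The count of stromal markers called higher, 10 as reported, was 5 with median centring, no filter or the adjusted t-test of the methods, 4 with probe sets averaged and 0 with the replicate block. It was 11 with signals under 5 raised to 5 or with the intensity trend, and 14 with the study's rule. The count of other pathway genes, 3 higher and 1 lower as reported, was 0 in both directions with median centring, no filter, probe sets averaged or the replicate block. It was 3 higher and 1 lower with signals under 5 raised to 5, and 4 and 2 with the lowest 0.5 of genes left out. With the intensity trend it was 6 and 3, where 727 and 533 of all genes were called, and with the study's rule 6 and 1. Of these genes, *Wls* changed sign with probe sets averaged (0.24). *Rptor* differed by -0.16 there, and its sign was the same in all 19 alternatives. Deviations of same-numbered KO and WT arrays from their group means had correlations of -0.0404, 0.0876, 0.120 and -0.0269. KO2 and KO3 correlated best with the WT array of their own number, and KO1 and KO4 with another. Correlations this small cannot decide whether the numbers pair samples.

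Members with small differences changed sign. With probe sets averaged these were *Apc* (0.12), *Axin2* (0.41), *Fzd8* (-0.13), *Lrp6* (0.32), *Tcf7l2* (0.23) and *Wnt7b* (-0.62), with the replicate block *Apc* (0.0048), *Axin2* (0.020) and *Fzd10os* (-0.11), and with quantile normalization *Fzd5* (-0.020). Leaving out 1 array gave ranges that crossed 0 for *Apc* (-0.056 to 0.0096), *Axin2* (-0.21 to 0.10), *Fzd10os* (-0.15 to 0.41), *Fzd5* (-0.056 to 0.18), *Fzd8* (-0.12 to 0.21), *Lrp5* (-0.47 to 0.0044), *Tcf7l2* (-0.14 to 0.067), *Wnt7a* (-0.17 to 0.55), *Wnt7b* (-0.16 to 0.26) and *Wnt9b* (-0.30 to 0.85). The cause was not tested, and none of these members was called in any setting. Dim signals limit the 18 members left out, whose arrays scatter most.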
